A study of Mus musculus with 4 samples.

Results

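C1q tumour macrophages were cells of KPC46 mouse pancreatic tumours that held C1q RNA and little Arg1 RNA, and were neither in cycle nor positive for 3 interferon-induced genes at the same time. They numbered 896 of 10535 barcodes that met the quality limits, out of 16890 deposited. A barcode stands for a droplet and in most cases a cell, and a UMI (unique molecular identifier) for 1 captured RNA molecule. The limits were at least 1000 UMIs, at least 250 genes, at most 20% mitochondrial UMIs and at least 1 UMI of Malat1. C1q-positive cells, 2642 in all, then had at least 3 UMIs of C1qa, C1qb and C1qc together, more of these than of Krt8, Krt18 and Krt19, and no Cd3e. From these the rule dropped 1623 with at least 3 UMIs of Arg1, 56 with a UMI of each of Rsad2, Ifit2 and Cxcl10, and 306 with UMIs of at least 3 of Mki67, Top2a, Ube2c, Birc5, Cdk1 and Cenpf. A cell could be dropped on more than 1 ground. The members were thus chosen by the measured UMIs of these rule genes, which are given as values only, with no test.

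The series held 4 single-cell RNA libraries, each from the tumour of 1 mouse of strain B6/129 F1J, with 2 mice given vehicle (Cremophor) and 2 given TAK-981. KPC46 is a mouse organoid line of pancreatic cancer, and the same line formed the tumours of both groups. Neither age, sex, dose nor length of treatment is stated in the labels used here. The libraries are named vehicle 1, vehicle 2, TAK-981 1 and TAK-981 2, and values per library are given in that order. The comparison asks how blocking SUMOylation changes the cells of the tumour.

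C1q is the recognition part of the classical complement pathway. Most complement proteins come from the liver, but C1q is made mainly by macrophages and related cells, and it tags dying cells for uptake. C1q-expressing macrophages are a common population of solid tumours, where they clear debris by scavenger receptors and present antigen on MHC class II. Arg1 encodes arginase, an enzyme that consumes arginine and marks macrophages of an immunosuppressive or hypoxic type. TAK-981 (subasumstat) inhibits the enzyme that activates SUMO, a small protein that is attached to many nuclear proteins. SUMOylation is known to hold type I interferon genes in check.

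C1q macrophages numbered 319, 280, 178 and 119 in the 4 libraries. Their median depths were 3038 and 2976.5 UMIs in vehicle but 6629 and 6066 UMIs under TAK-981, and their median mitochondrial shares were 3.49, 3.01, 8.06 and 6.47%. Libraries held 24411656, 29041348, 26376608 and 63898758 UMIs in all, and the macrophages summed to 1053141, 875444, 1312833 and 806382. Pairs of libraries shared from 1 to 10 barcodes, and none of these was a C1q macrophage in both libraries of its pair. Depth and mitochondrial share thus moved with treatment, and no batch is named in the labels, so any batch aligned with treatment cannot be told apart.

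Label genes that the rule did not use were far higher in C1q macrophages than in barcodes that were not C1q-positive. Ms4a7, a membrane gene of tissue macrophages, had 266, 350, 419 and 501 CPM (UMIs of a gene scaled to a fixed total per sum of cells) in C1q macrophages and 1.65, 1.33, 7.80 and 2.92 CPM in the barcodes that were not C1q-positive. Apoe, the lipid carrier, had 5398, 16463, 10958 and 11209 CPM against 121, 104, 381 and 86.1. Csf1r, the growth factor receptor of the macrophage line, had 540, 768, 474 and 513 CPM against 25.9, 8.68, 17.4 and 10.1. Stab1, a scavenger receptor, and Ccl8, a chemokine, had at least 190 CPM in each library, against at most 10.6 in the other barcodes. Against Arg1-high cells the differences were smaller. In the comparison below, the 4 tested label genes had log2 fold changes above 0 in C1q macrophages (median 0.45), and Ms4a7 alone passed. In TAK-981 1, however, Arg1-high cells had more Ms4a7 (467 CPM), Stab1 (288), Ccl8 (405) and Apoe (12849). Cells with a UMI of Folr2, a folate receptor of resident macrophages, were 15.0, 29.6, 24.2 and 35.3%, against at most 0.606% in keratin-expressing cells without C1q, which were deeper (median 10305.5 to 21064.5 UMIs). Timd4, a marker of long-lived resident macrophages, was rare and found in at most 2.51% of the cells of a library. Vsig4, another such marker, was found in at most 1.79% of cells. Other genes of resident-type macrophages were not rare. In C1q macrophages thinned at random to equal depth, Selenop was found in 40.4, 74.6, 53.9 and 51.3% of cells. Pf4 was found in 31.0, 61.1, 24.7 and 37.8% of these thinned cells.

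The cells near the limits of the rule were few for C1q and many for Arg1. C1q macrophages with exactly 3 C1q UMIs numbered 10, 3, 5 and 3, and cells with 2 C1q UMIs just outside numbered 24, 4, 17 and 1. Arg1 UMIs of 0, 1 and 2 were held by 188, 74 and 57 macrophages of vehicle 1, by 161, 76 and 43 of vehicle 2, by 107, 40 and 31 of TAK-981 1 and by 73, 27 and 19 of TAK-981 2. Just outside, 54, 38, 22 and 23 C1q-positive cells had 3 Arg1 UMIs. The Arg1 limit therefore cut through a continuous range of counts, and it was met more easily by deeper cells.

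Markers of other cell types were present in the macrophage sums and not equal between groups. The highest sums were those of acinar and fibroblast genes in TAK-981 1. Acinar genes summed to 52.2 and 32.0 CPM in vehicle and to 1114 and 264 CPM under TAK-981, with 11 and 1 of the 15 listed genes found in vehicle and all 15 under TAK-981. Fibroblast genes summed to 273 and 50.3 CPM in vehicle against 785 and 399 with TAK-981, with 9 to 11 of 12 found in each library. Neutrophil genes summed to 190 and 224 CPM in vehicle against 260 and 401 with TAK-981, with 8 to 10 of 12 found in each library. Ly6g and Camp were at 0 in all 4, while Retnlg and Cxcr2 were at 0 in vehicle 1 only. Epithelial genes summed to 41.1 to 79.2 CPM, T cell genes to 25.1 to 89.3 CPM and NK cell genes to 4.57 to 12.3 CPM. Of 12 T cell genes, 6, 4, 4 and 10 were found.

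C1q macrophages made up 10.4% (95% exact binomial interval 9.38 to 11.6), 8.63% (7.69 to 9.65), 12.7% (11 to 14.5) and 4.2% (3.49 to 5.01) of the kept barcodes. Vehicle tumours averaged 9.54% ± 1.28 and TAK-981 tumours 8.44% ± 5.99 (SD, n = 2 each; exact permutation test, two-sided, p = 1). Among C1q-positive cells they were 34.0, 43.0, 35.2 and 21.8%, a mean of 38.5% ± 6.39 and 28.5% ± 9.54 (SD, n = 2, exact two-sided permutation p = 0.667). The 4 libraries allow no exact p under 0.33, and the intervals cover counting error only. TAK-981 2 was the lowest and TAK-981 1 the highest share of kept barcodes, so the treated tumours lay on either side of the vehicle tumours.

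The shares of the gates that surround the macrophages changed when depth was made equal. Cells over the Arg1 limit were 62.2, 54.2, 56.8 and 72.9% of C1q-positive cells at full depth. When each cell was thinned at random to 1000 UMIs before the rule was applied, they were 28.9, 26.8, 14.9 and 30.7%, and C1q macrophages became 67.8, 71.1, 80.3 and 66.7% of C1q-positive cells. Cells with Rsad2, Ifit2 and Cxcl10 were 1.28, 0.154, 1.58 and 6.40% at full depth. When thinned they were 0.396, 0, 0.209 and 0.632%, which overlapped between groups. Cycling cells were 9.16, 6.30, 22 and 12.4% at full depth, which did not overlap between groups, and 3.70, 2.84, 5.02 and 1.89% when thinned, which did. Without TAK-981 2 the share among kept barcodes was 3.14 percentage points higher under TAK-981 instead of 1.10 points lower, and without TAK-981 1 it was 5.33 points lower.

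**Figure D1:**
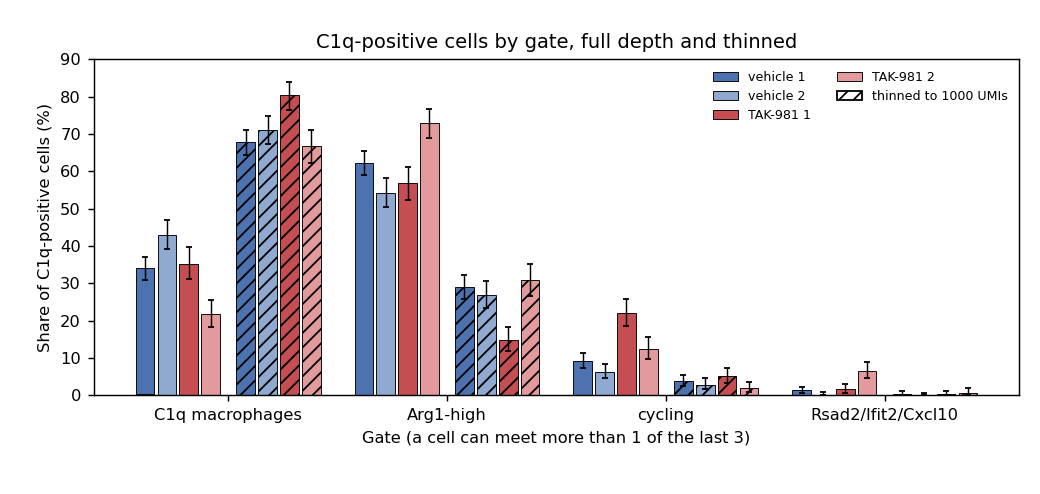
Bars give the share of C1q-positive cells (%, linear axis from 0) in each gate and library, solid at full depth and hatched after thinning to 1000 UMIs, with exact 95% binomial intervals. C1q macrophages were 21.8 to 43.0% at full depth and 66.7 to 80.3% when thinned, while Arg1-high cells moved the opposite way.

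Compared with the Arg1-high cells of the same tumours, C1q macrophages had less RNA of glycolysis and hypoxia genes and more of MHC class II genes. Arg1 parted the cells and is not tested. The Arg1-high cells used here were C1q-positive, over the Arg1 limit and not dropped for the other gates (522, 329, 209 and 331 cells, median depths 4177, 3842, 9421 and 9215 UMIs, so deeper than the macrophages in each library). UMIs were summed per library and cell group and tested with the edgeR quasi-likelihood F test, with library as a block and p-values adjusted by Benjamini-Hochberg over the 8168 genes that entered. An adjusted p below 0.05 is called a change, and 362 genes or 4.43% passed, of which 169 (2.07%) were higher and 193 (2.36%) lower in C1q macrophages. Levels in the tested comparisons are CPM scaled by the TMM method, which sets typical genes equal between libraries. The scaling is made per comparison, so the same sum can differ slightly between them.

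Of the 23 tested genes of the glycolysis and hypoxia list, 18 were lower in C1q macrophages, 0 were higher and 5 did not pass, and the list's median log2 fold change was -0.81, beside 0.0039 for all genes. These genes are known targets of the hypoxia-inducible factor HIF1 or enzymes of the pathway that it raises. Egln3, the prolyl hydroxylase that marks HIF for destruction, had 6.03, 9.61, 5.07 and 13.9 CPM in C1q macrophages and 67.9, 70.7, 22.5 and 58.9 CPM in Arg1-high cells. The macrophages were lower in every library (log2 fold change -2.63 ± 0.23 SE, adjusted p = 1.19e-05). Egln3 met the filter on low counts only through the Arg1-high cells, so its adjusted p is a value and not support. Bnip3, a mediator of mitophagy, had 61.4, 78.1, 57.3 and 60.4 CPM against 199, 266, 104 and 175 (-1.46 ± 0.14 SE, adjusted p = 3.05e-05). Hilpda, which protects lipid droplets from breakdown, was lower by the same measure (-1.21 ± 0.10 SE), with 287, 233, 199 and 463 CPM against 715, 616, 455 and 895.

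The enzymes of glycolysis followed with smaller differences. Pgk1, phosphoglycerate kinase, had 354, 358, 457 and 473 CPM in C1q macrophages and 848, 856, 726 and 865 CPM in Arg1-high cells (-1.01 ± 0.11 SE, adjusted p = 6.49e-05). Ldha, lactate dehydrogenase, had 452, 416, 539 and 556 CPM against 897, 918, 760 and 858 (-0.81 ± 0.11 SE). The glucose transporter Slc2a1 had 82.5, 28.8, 60.9 and 87.1 CPM against 205, 138, 91.9 and 158 (-1.15 ± 0.18 SE). Vegfa, the vessel growth factor, fell by 0.72 on the log2 scale. Pgk1, Ldha, Slc2a1 and Vegfa were lower in the macrophages of all 4 libraries. For Pgk1, Ldha and Slc2a1 the distance was smallest in TAK-981 1. After thinning to 1000 UMIs, 15 of the 20 genes still tested were lower, with a median of -0.80.

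MHC class II molecules display peptides taken up from outside the cell to CD4 T cells. Of the 10 tested genes of that list, 8 were higher in C1q macrophages, 0 lower and 2 did not pass, with a median log2 fold change of 0.74. H2-Aa, an alpha chain, had 4777, 2397, 5038 and 4523 CPM in C1q macrophages and 3577, 1670, 3049 and 1569 CPM in Arg1-high cells (0.80 ± 0.14 SE, adjusted p = 0.0039). H2-Eb1, a beta chain, had 3696, 1913, 4064 and 3426 CPM against 2746, 1195, 2321 and 1076 (0.89 ± 0.15 SE). Ciita, the transcriptional regulator on which the class II genes depend, had 120, 36.0, 115 and 89.4 CPM against 75.4, 23.3, 56.5 and 32.9 (0.97 ± 0.14 SE, adjusted p = 0.0012). The invariant chain Cd74 was higher by 0.59 ± 0.12 SE. All 4 libraries had the same direction for these genes, with vehicle 2 lowest among the C1q macrophages. After thinning, 5 of 9 tested class II genes were higher, and Ciita lost the call (adjusted p = 0.486). With DESeq2 the calls of H2-Aa (adjusted p = 0.113), H2-Eb1 (0.0728) and Cd74 (0.56) were lost.

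**Figure D2:**
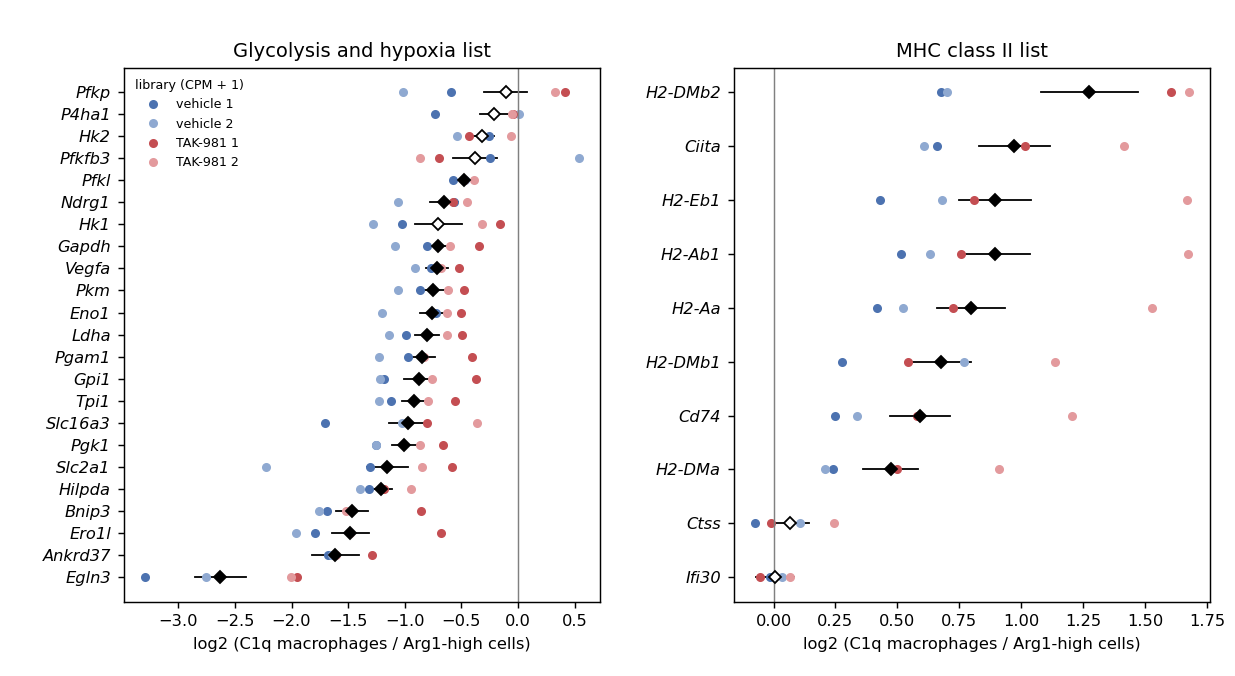
Log2 ratios (x axis) of C1q macrophages over Arg1-high cells for the tested genes of the glycolysis and hypoxia list and of the MHC class II list, with dots for each library (CPM plus 1) and diamonds with SE bars for the fit, black where the adjusted p was below 0.05. The 18 black diamonds on the left lie below 0 and the 8 on the right lie above 0.

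Promoters of genes in these lists are shown because the genes differed together between the cell groups. The sequences are the 250 bases before the first listed start, from RefSeq on GRCm38.p6, 5′ to 3′ on the strand of the gene. In the first 3, capitals mark ACGTG or its reverse complement, the core letters of the hypoxia response element. In the last 2, capitals mark ATTGG or its reverse complement, the letters of the CCAAT box that forms the Y box of class II promoters. Egln3 lies on the minus strand at chr12:54203875-54204124, Bnip3 on the minus strand at chr7:138909507-138909756, Pgk1 on the plus strand at chrX:106186850-106187099, H2-Aa on the minus strand at chr17:34287824-34288073 and H2-Eb1 on the plus strand at chr17:34305617-34305866.
Egln3: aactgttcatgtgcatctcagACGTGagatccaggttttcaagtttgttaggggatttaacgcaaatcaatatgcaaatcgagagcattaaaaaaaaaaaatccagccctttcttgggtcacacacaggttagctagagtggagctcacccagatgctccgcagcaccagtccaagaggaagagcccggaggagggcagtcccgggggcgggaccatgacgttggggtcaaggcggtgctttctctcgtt
Bnip3: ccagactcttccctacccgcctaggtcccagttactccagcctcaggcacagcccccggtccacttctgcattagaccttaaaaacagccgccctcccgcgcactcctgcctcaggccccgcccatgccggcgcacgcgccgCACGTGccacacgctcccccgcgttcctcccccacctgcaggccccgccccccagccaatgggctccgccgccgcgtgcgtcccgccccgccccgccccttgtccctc
Pgk1: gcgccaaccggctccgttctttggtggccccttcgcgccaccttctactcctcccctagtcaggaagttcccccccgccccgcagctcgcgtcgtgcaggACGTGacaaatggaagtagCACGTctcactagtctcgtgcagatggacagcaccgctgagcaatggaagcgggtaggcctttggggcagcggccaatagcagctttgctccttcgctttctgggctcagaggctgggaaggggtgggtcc
H2-Aa: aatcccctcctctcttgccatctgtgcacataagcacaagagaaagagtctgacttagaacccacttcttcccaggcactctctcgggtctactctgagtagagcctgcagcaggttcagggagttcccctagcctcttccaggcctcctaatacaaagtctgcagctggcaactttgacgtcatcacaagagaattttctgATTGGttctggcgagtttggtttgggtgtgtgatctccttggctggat
H2-Eb1: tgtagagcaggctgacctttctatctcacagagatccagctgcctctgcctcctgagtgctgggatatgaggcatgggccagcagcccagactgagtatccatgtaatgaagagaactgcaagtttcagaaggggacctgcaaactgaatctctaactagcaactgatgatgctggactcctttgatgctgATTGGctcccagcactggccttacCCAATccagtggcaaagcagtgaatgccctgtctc

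ACGTG was found on either strand in 8 of the 16 lower glycolysis and hypoxia genes that had a promoter in the table, and in 11 of the 21 tested. Of all 6585 tested genes with a promoter, 23.5% held it. The 8 were Slc2a1, Pgk1, Pgam1, Ldha, Slc16a3, Bnip3, Egln3 and Ankrd37. ATTGG was found in 4 of the 5 higher class II genes with a promoter, namely H2-Aa, H2-Eb1, H2-DMb1 and H2-DMb2, and in 35.9% of all. A match of letters describes the sequence and shows no binding. Both motifs were chosen after the lists had been compared.

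Other groups of macrophage genes divided between the 2 kinds of cell. Of 24 lipid-associated macrophage genes, 8 were lower in C1q macrophages and 1, Fabp4, was higher. Spp1, osteopontin, had 728, 2337, 1610 and 1628 CPM against 4299, 4614, 2982 and 5128 in Arg1-high cells (-1.51 ± 0.20 SE, adjusted p = 0.00047), although keratin-expressing cells also carry it (a UMI in up to 98.9% of them). Fabp5, a fatty acid carrier, had 499.9, 940, 705 and 916 CPM against 1073, 1534, 1080 and 1659 (-0.82 ± 0.09 SE). Trem2, the lipid receptor that defines the programme, did not pass. Of 25 matrix and protease genes, 10 were lower and 3 higher. Fn1, fibronectin, had 1436, 759, 504 and 481 CPM against 3440, 2452, 1077 and 1439 (-1.40 ± 0.10 SE, adjusted p = 2.51e-06). Adam8, a sheddase, had 88.5, 121, 29.0 and 140.5 CPM against 281, 387, 94.2 and 277 (-1.47 ± 0.13 SE).

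Of 17 chemokines, 7 were lower in C1q macrophages, 2 were higher and 8 did not pass. Pf4, a platelet-type chemokine that macrophages also make, had 768, 1959, 301 and 538 CPM against 1799, 4458, 794 and 1843 in Arg1-high cells (-1.39 ± 0.10 SE). Ccl6 had 1824, 1457, 992 and 1481 CPM against 3877, 2851, 2594 and 4792 (-1.28 ± 0.10 SE). The neutrophil attractant Cxcl3 was lower as well (-2.08 ± 0.22 SE). Ccl17, which attracts CCR4-bearing T cells, was higher, with 148, 8.41, 89.9 and 111 CPM against 23, 0.804, 3.22 and 0.874 (3.96 ± 0.39 SE, adjusted p = 3.41e-05). Ccl17 met the filter on low counts only through the C1q macrophages, so its adjusted p is a value and not support. Its UMIs came from few cells, since 6.58, 0.714, 5.06 and 6.72% of C1q macrophages held one. In deeper keratin-expressing cells 2.75, 12.4, 20.3 and 8.44% held a Ccl17 UMI.

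Inflammatory cytokines went both ways, with 4 of 27 higher and 5 lower. Il6 had 40.2, 2.40, 18.8 and 11.6 CPM in C1q macrophages and 128, 19.3, 57.9 and 39.9 CPM in Arg1-high cells (-1.74 ± 0.17 SE, adjusted p = 3.41e-05). Il1a was also lower (-0.92 ± 0.11 SE), whereas Il1b had 3335, 1618, 2490 and 2978 CPM against 3458, 1444, 1693 and 1912 and did not pass (0.33 ± 0.10 SE, adjusted p = 0.113). Nos2, the inducible nitric oxide synthase, had 1.01, 0, 0.725 and 1.16 CPM against 15.5, 34.6, 7.81 and 23.6 (adjusted p = 6.62e-05). Of the oxidative stress genes 6 of 19 were lower, among them the metallothionein Mt2 (-1.59 ± 0.15 SE), and 4 of 19 iron handling genes were lower, among them the haem oxygenase Hmox1 (-0.93 ± 0.17 SE). Slpi, a secreted protease inhibitor, had the largest fall by the naming rule, with 20.1, 22.8, 5.07 and 10.4 CPM against 137, 242, 29.4 and 209 (-3.32 ± 0.20 SE, adjusted p = 6.43e-07). Il6, Nos2 and Slpi met the filter on low counts only through the Arg1-high cells. Their adjusted p is therefore given as a value and not as support.

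Of 53 type I interferon genes 5 were higher and 0 lower, and of 24 interferon-gamma genes 6 were higher and Nos2 was lower. Ms4a4c had 141, 26.4, 165 and 290.2 CPM against 51.4, 13.7, 158 and 95.9 (1.00 ± 0.21 SE, adjusted p = 0.0157). Gbp4, a guanylate-binding protein, had 20.1, 6, 36.2 and 26.7 CPM against 7.49, 1.61, 21.1 and 10.5 (1.14 ± 0.23 SE). The median was 0.33 for the type I list and 0.30 for the interferon-gamma list. Cells with Rsad2, Ifit2 and Cxcl10 together had been dropped from both cell groups. After thinning, 2 of the 28 type I genes still tested were higher.

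Of 15 resident-type genes, Selenop and Cbr2 were higher, Pf4 and Ccl24 lower, and 11 did not pass. Selenop, a selenium carrier, had 922, 2546, 1294 and 1139 CPM against 445, 1095, 1158 and 833 (0.72 ± 0.14 SE, adjusted p = 0.00856). Mgl2, a lectin of alternatively activated macrophages and of some dendritic cells, had 502, 73.3, 502 and 564 CPM against 304, 51.4, 248 and 314 (0.82 ± 0.10 SE). Mrc1, the mannose receptor, had 915, 1875, 483 and 577 CPM against 868, 1058, 594 and 811 and did not pass (0.03 ± 0.16 SE, adjusted p = 0.968). None of 43 ribosomal protein genes, 33 respiratory chain genes or 25 SUMO pathway genes passed in either direction at an adjusted p of 0.05.

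Genes of other cell types stood among those that differed. Sparc, Igfbp7, Bgn, Mgp and Col3a1, typical of stromal cells, were among the 10 higher genes of largest fold change that met the naming rule, which asks for a mean log2 CPM of at least 5. Sparc had 86.5, 60.0, 460 and 230 CPM against 7.99, 20.9, 158 and 43.7. The 12 fibroblast markers summed to 273, 50.3, 785 and 399 CPM in C1q macrophages and to 18.6, 32.1, 604 and 89.4 CPM in Arg1-high cells. The 12 dendritic cell markers summed to 91.2, 43.4, 76.2 and 81.8 CPM against 20.8, 21.9, 21.3 and 22.1, with Batf3 and Kmo higher. The 12 neutrophil markers summed to 190, 224, 260 and 401 CPM against 1340, 296, 342 and 1127, with S100a8, Mmp8 and Mmp9 lower. The part of such cells in the differences was not tested, and the call of S100a8 was lost after thinning (0.028, adjusted p = 0.989), with DESeq2 (-1.48, adjusted p = 0.933), with vehicle 1 left out (-0.72, adjusted p = 0.0896) and with vehicle 2 left out (-2.15 at 0.0579).

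The count of differing genes ranged with the library left out. It was 181 without vehicle 1 and 220 without TAK-981 2, against 362 with all 4. Thinned cells gave 57 higher and 113 lower, and DESeq2 gave 56 higher and 111 lower. Of these, 115 of the 170 calls in thinned cells were among the 362.

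MHC class II RNA varied widely among the macrophages of each tumour. At 1000 UMIs per cell, class II genes took a median of 2.40, 1.10, 2.40 and 2.10% of UMIs, the 10th percentiles were 0.30, 0.20, 0.30 and 0.20% and the 90th percentiles 4.50, 3.71, 6.03 and 5.80%. Each tumour thus held macrophages with almost no class II RNA beside others in which it took a large share of the RNA. Resident-type genes had medians of 0.30, 0.80, 0.20 and 0.40% and were highest in vehicle 2, where class II was lowest. Across cells the 2 lists ran against each other in every library, with Spearman's rho of -0.42, -0.64, -0.25 and -0.38 over 319, 280, 178 and 119 cells. Cells of a library share its depth and handling and the 2 shares are parts of the same 1000 UMIs, so no p is given.

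**Figure D3:**
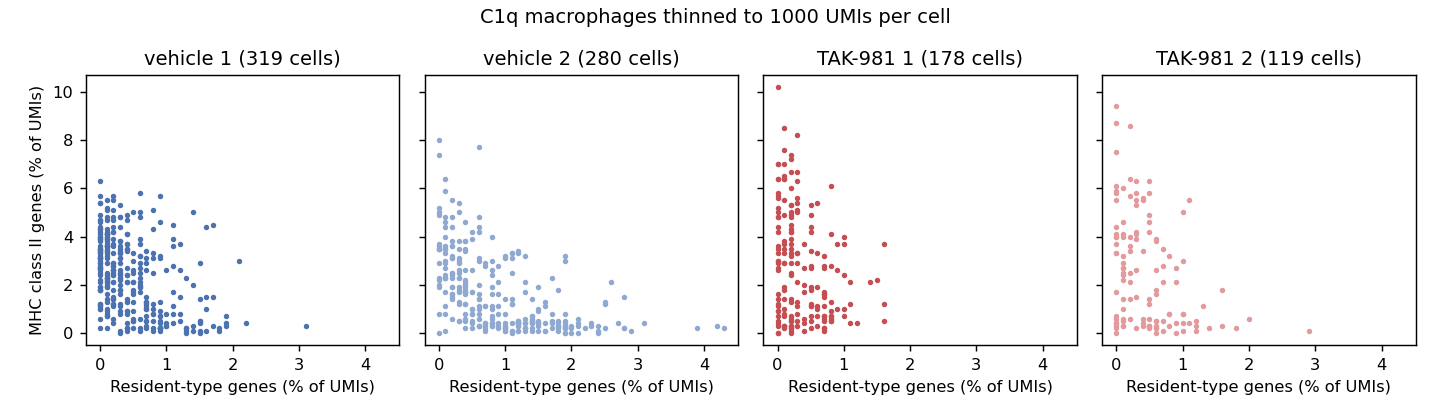
Each dot is a C1q macrophage thinned to 1000 UMIs, with its share of UMIs (%) in resident-type genes on the x axis and in MHC class II genes on the y axis, 1 panel per library. Cells high in 1 list are mostly low in the other, with rho from -0.64 to -0.25, and vehicle 2 reaches farthest along the x axis.

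Single genes were compared with the class II share in the same way. Of 242 listed genes found in at least 10% of thinned macrophages in each library, the lowest median rho with the class II share belonged to Ctsd (-0.35), Ctsb (-0.34), Maf (-0.33), Pf4 (-0.32), Ccl2 (-0.30) and F13a1 (-0.29). These are medians over libraries that differed. In TAK-981 1 the values were -0.26, -0.06, -0.12, -0.15, -0.31 and -0.22 in that order. Ctsd and Ctsb are lysosomal proteases, Maf is a transcription factor of mature macrophages, and F13a1 encodes a coagulation factor chain made by resident macrophages. The highest belonged to Il1b (0.40), followed by Rpl15, Cst3 and the monocyte receptor Ccr2 (0.25). Il1b had rho of 0.42, 0.39, 0.39 and 0.55 and was found in 75.5, 47.5, 55.6 and 63.0% of thinned macrophages. Pf4 is itself a member of the resident-type list. This ranking was made after the data had been seen and is a description.

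Under TAK-981, Adamdec1 and Atp1b3 were higher in C1q macrophages, and Fcna, Ednrb, Hcst and S100a4 were lower. Adamdec1 passed the filter on low counts through the TAK-981 libraries alone, so its call is not support. No gene of the type I interferon, MHC class I and MHC class II lists passed in this fit. Genes of the first pair of lists did pass after thinning, where the rule was applied to thinned counts and so chose a different set of cells. The edgeR test of the 4 sums called 43 of 7624 genes (0.564%), of which 10 (0.131%) were higher and 33 (0.433%) lower. All 43 had adjusted p between 0.04 and 0.05, so each stood near the limit. The edgeR p-values rest on n = 2 mice per group. For 45.3% of tested genes both TAK-981 values lay on the same side of both vehicle values.

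Adamdec1, a secreted metalloprotease of macrophages and dendritic cells, had 1.03 and 3.68 CPM in vehicle against 64.6 and 97.5 with TAK-981, from 1, 3, 87 and 82 UMIs. Its log2 fold change was 5.08 ± 0.52 SE (adjusted p = 0.0409). It passed the filter on low counts through the TAK-981 libraries alone, as did Serping1, Ctrb1, Reg2 and Cela2a below. The adjusted p of these genes, and their calls in the alternatives, are therefore given as values and not as support. Cells with a UMI were 0.313, 1.07, 16.9 and 18.5% of C1q macrophages, and in barcodes that were not C1q-positive its level was at most 0.212 CPM. It remained higher after thinning (3.57, adjusted p = 0.0128), and of the 17 alternatives that gave an adjusted p it lost the call in 1, all C1q-positive cells together (0.0604). The gene (ENSMUSG00000022057) lies on chromosome 14 from 68563380 to 68582095 on mm10, with GENCODE vM21 coordinates.

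Atp1b3, a beta subunit of the sodium and potassium pump, had 205 and 204 CPM in vehicle against 716 and 732 with TAK-981 (1.82 ± 0.26 SE, adjusted p = 0.0444). The values within each group were nearly equal, and 42.9, 42.1, 74.7 and 78.2% of C1q macrophages held a UMI. In barcodes that were not C1q-positive the levels were 75.9, 62.9, 93.2 and 82.1 CPM. The call was kept after thinning (1.86, adjusted p = 0.0029). It was lost over all C1q-positive cells (1.47, edgeR adjusted p = 0.0604) and without transcripts under 800 nt (1.82, adjusted p = 0.0641). The same held with the trend of fold change on transcript length removed (1.67, adjusted p = 0.0583). It was also lost without vehicle 2 (fold change 1.80) and without TAK-981 1 (1.83). The gene (ENSMUSG00000032412) lies on chromosome 9 from 96332655 to 96364442.

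The other 8 higher genes were Serping1, Ctrb1, Reg2, Cela2a, Sparc, Postn, Col5a2 and Serpinf1. Serping1, the C1 inhibitor that blocks the proteases bound to C1q, had 1, 1, 32 and 27 UMIs (adjusted p = 0.0444), which came from 0.313, 0.357, 2.81 and 1.68% of the macrophages. Its level in the other barcodes was 36.6, 17.5, 36.8 and 26.1 CPM, and the call was lost without either vehicle library (0.059 and 0.069). Ctrb1, Reg2 and Cela2a are products of pancreatic acinar cells or of damaged pancreas, and Ctrb1 had 5.13, 0, 302 and 64.2 CPM. Ctrb1 UMIs were found in at most 1.57% of vehicle C1q macrophages and in 46.6 and 31.9% under TAK-981, and in 3.32, 0.108, 39.7 and 35.8% of keratin-expressing cells. Sparc, Postn, Col5a2 and Serpinf1 are genes of fibroblasts. The acinar list, summed above, was also higher under TAK-981, and its part in these calls was not tested.

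**Figure D4:**
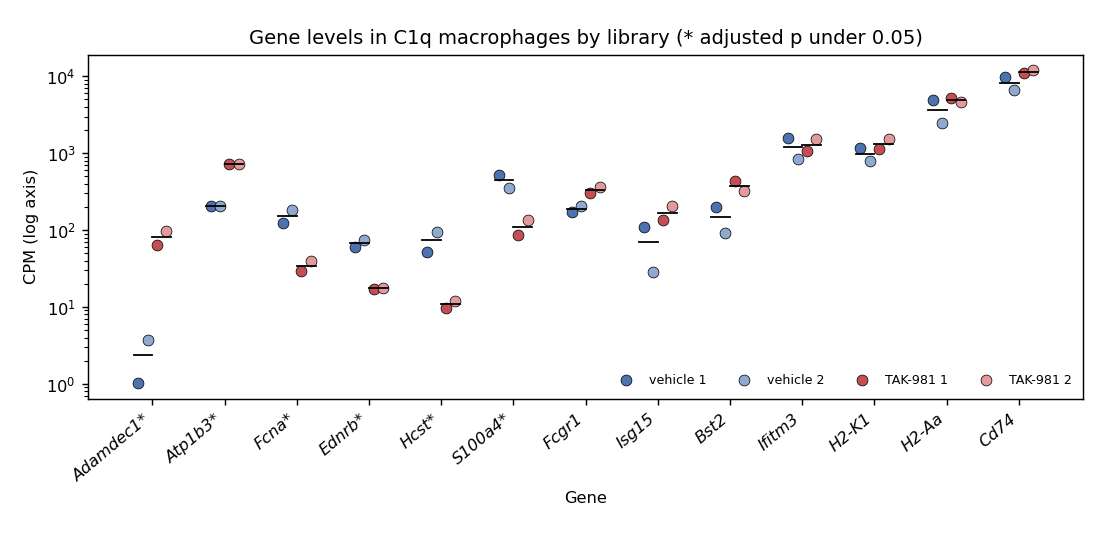
Scaled CPM (log axis) in C1q macrophages for 13 genes, with a dot per library and a black line at the mean of each group, and an asterisk where the edgeR adjusted p was below 0.05. Adamdec1 and Atp1b3 are higher and Fcna, Ednrb, Hcst and S100a4 lower in both TAK-981 libraries, while none of the other 7 genes carries an asterisk, whether its groups overlap (Ifitm3, H2-K1) or not (Isg15, Bst2).

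Among the lower genes, Fcna, a ficolin of the lectin complement pathway made by resident macrophages, had 125 and 181 CPM in vehicle against 29.0 and 39.2 with TAK-981 (-2.18 ± 0.31 SE, adjusted p = 0.0444). The share of macrophages with a Fcna UMI was 13.5, 22.9, 11.8 and 20.2%, which overlapped, and after thinning the call was lost (-1.29, adjusted p = 0.0854). With all C1q-positive cells together its fold change was -0.63 (adjusted p = 0.577). Ednrb, an endothelin receptor, had 59.5 and 74.8 CPM against 17.1 and 17.8 (-1.94 ± 0.31 SE, adjusted p = 0.0444) and was lost after thinning as well (-1.43, adjusted p = 0.186). Hcst, the DAP10 signalling adaptor, had 52.3 and 94.4 CPM against 9.66 and 11.9 (-2.77 ± 0.40 SE). S100a4, a calcium-binding protein, had 527 and 356 CPM against 86.2 and 134 (-2.01 ± 0.33 SE). S100a4 was also lower in barcodes that were not C1q-positive, with 871, 1180, 183 and 257 CPM.

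The other lower genes included the ribosomal protein genes Rps28, Rpl36, Rpl38 and Rpl41 and the respiratory chain genes Ndufa1 and Ndufa3. Rps28 had 4163 and 4837 CPM in vehicle against 592 and 1090 with TAK-981 (-2.42 ± 0.39 SE). Of 91 ribosomal protein genes tested 7 were lower, with a median of -0.74. Many ribosomal protein genes have near-identical pseudogenes, so their counts are uncertain. Transcripts under 800 nt were 2.61% of the tested genes, 1 of the 10 higher and 16 of the 33 lower genes (48.5%). Without such transcripts, and with the trend of fold change on transcript length removed, 1 gene was called in each case, Adamdec1. As stated above, Adamdec1 passed the filter through the TAK-981 libraries alone, so these calls are values and not support. What made short transcripts lower in the TAK-981 libraries was not tested.

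**Figure D5:**
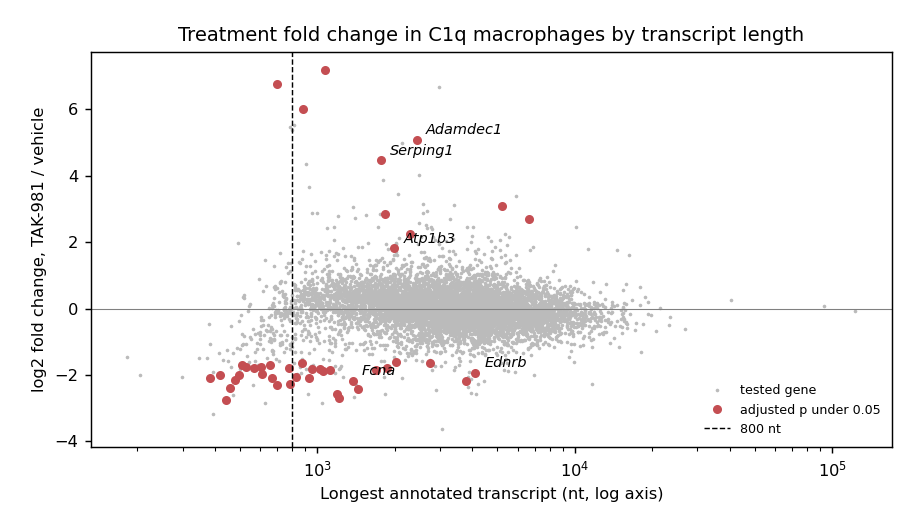
Log2 fold change of TAK-981 over vehicle in C1q macrophages (y axis) against the longest annotated transcript of each tested gene (nt, log axis), with called genes in red and a dashed line at 800 nt. The lower genes crowd at the short end, where 16 of 33 lie under 800 nt, and Adamdec1 and Atp1b3 lie apart from them. Atp1b3 lost its call without transcripts under 800 nt and with the length trend removed.

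Type I interferon genes are the antiviral genes switched on by interferon alpha and beta. Of 51 type I interferon genes 0 were higher and 0 lower by edgeR, 10 were higher and 0 lower at an unadjusted p under 0.05, against 6.37% of all genes tested being higher at that level. The median log2 fold change was 0.47, and 45 of the 51 were above 0. In thinned cells, 7 of the 44 type I genes tested were higher and 0 lower, with a median of 0.65. Of 5145 genes in all, 42 were higher there. Thinning came before the rule, which then chose 513, 425, 384 and 317 cells. Only 3, 0, 1 and 3 C1q-positive cells then met the Rsad2, Ifit2 and Cxcl10 limit, against 12, 1, 8 and 35 at full depth. Isg15, a ubiquitin-like interferon product, had 110 and 28.2 CPM in vehicle against 134 and 204 with TAK-981 (1.27 ± 0.51 SE, adjusted p = 0.318). Bst2, the tetherin that retains virus particles, had 201 and 90.7 CPM against 438 and 321 (1.38 ± 0.38 SE, adjusted p = 0.164). Ifitm3 had 1593, 848, 1063 and 1514 CPM, which overlapped. The median was 1.41 without vehicle 1 and 0.10 without vehicle 2, so the distance depended on which vehicle tumour it was measured from.

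Per cell the type I list took a median of 0.40, 0.20, 0.40 and 0.40% of 1000 UMIs, and the 90th percentile was 1.30, 0.60, 1.33 and 2.12%. The upper end was highest in TAK-981 2 and vehicle 1 was close to TAK-981 1. The rule had removed 35 cells of TAK-981 2 and at most 12 of any other library for Rsad2, Ifit2 and Cxcl10, which trims that upper end. With all C1q-positive cells together the median fold change was 0.71, again with 0 calls. The removed cells were not compared with the macrophages by a test, since fewer than 15 were left in a library.

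Class I heavy chain genes are near copies of each other, and reads may be split among them. Of 22 MHC class I genes 0 passed, 9 were higher at an unadjusted p under 0.05 (6.37% of all genes were), and the median was 0.68. In thinned cells 3 of 19 class I genes were higher, with a median of 0.79. H2-D1, a class I heavy chain, had 990 and 921 CPM in vehicle against 1764 and 1731 with TAK-981 (0.87 ± 0.28 SE, adjusted p = 0.22). Of 22 interferon-gamma genes 1 was higher, Serping1, and the median was 0.67. Fcgr1, the high-affinity IgG receptor, had 169 and 204 CPM against 304 and 366 (0.85 ± 0.26 SE, adjusted p = 0.209). Of 10 MHC class II genes 0 passed. Cd74 had 9893 and 6558 CPM in vehicle against 11028 and 12002 with TAK-981 (0.49 ± 0.38 SE, adjusted p = 0.634). The class II median of 0.42 was 0.01 after thinning and -0.06 with all C1q-positive cells, and ranged from 0.16 without vehicle 2 to 1.00 without vehicle 1.

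C1qa, a gene of the rule and so not tested, had 3222, 4318, 4354 and 4020 CPM. The 4 label markers that were tested did not pass. Apoe had 5832, 17670, 10690 and 10747 CPM. The vehicle tumours differed more in Apoe than the TAK-981 tumours did. Ccl8 had 699, 790, 188 and 506 CPM (-1.11 ± 0.43 SE, adjusted p = 0.296). Among 15 resident-type genes Fcna was lower and the others did not pass. Of the 15, 13 were below 0, with a median of -0.74 beside -0.00066 for all genes tested. The list's median was -0.40 after thinning and -0.48 over all C1q-positive cells, with 0 genes called in each. Pf4 had 784 and 2000 CPM against 308 and 550 (-1.70 ± 0.47 SE, adjusted p = 0.164), and Mrc1 had 933 and 1914 CPM against 496 and 591 (-1.39 ± 0.38 SE, adjusted p = 0.157). Both were lower in the 2 TAK-981 libraries than in either vehicle library, and the groups did not overlap for 45.3% of all genes tested. Mrc1 UMIs were also found in 39.3 to 71.8% of the deeper keratin-expressing cells.

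Of 25 SUMO pathway genes 0 passed, 5 were higher and 2 lower at an unadjusted p under 0.05 (7.46% of all genes were lower at that level), and the median was 0.22. Sumo2 had 186 and 201 CPM in vehicle against 380 and 289 with TAK-981 (0.79 ± 0.27 SE, adjusted p = 0.242). Of 19 heat shock genes 0 passed, 7 were higher at an unadjusted p under 0.05 and the median was 0.66. Of 25 immediate early genes, which respond to tissue dissociation, 0 passed, 8 were lower at that level and the median was -0.56. Fos had 1287 and 2106 CPM against 889 and 724 (-1.07 ± 0.33 SE, adjusted p = 0.206).

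The number of genes called under TAK-981 turned on single libraries. It was 91 without vehicle 1, 11 without vehicle 2, 17 without TAK-981 1 and 196 without TAK-981 2. A lone library was then assumed to vary like the pair of the other group. Over all C1q-positive cells the edgeR count was 0 of 10924 genes, with 1666 at an unadjusted p under 0.05.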

How the data were processed

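The authors deposited raw UMI counts for each gene and barcode. Cell Ranger 6.1.2 (file headers) and mm10 (submitters' processing notes) are the tool and build named. Barcodes were gated by the stated rule, and predicted doublets stayed in. Counts were summed per library and tested with edgeR 4.0.16 (R 4.3.3, limma 3.58.1): filterByExpr, TMM, quasi-likelihood F test, Benjamini-Hochberg adjustment at 0.05, SE taken as the fold change over the root of F. Genes were named when adjusted p was below 0.05, mean log2 CPM at least 5 and group values did not overlap, up to 15 per direction under treatment and 10 between cell groups, plus up to 4 passing and the 3 highest members of each of 30 lists; Isg15, Bst2, Fcgr1 and a few list members quoted were added after their values were seen. Cells were thinned to 1000 UMIs with seed 1 (scanpy 1.11.5, Python 3.11.15). For the fits and the shares this came before the rule and changed the cells chosen, and for levels per cell it came after. The members, lists and tests were chosen with earlier results of these data known. On data simulated at a dispersion of 0.05, the treatment fit recovered 17.0% of 2-fold and 89.0% of 4-fold changes (6 false calls over 7350 genes); the cell group fit at 0.02 recovered 85.6 and 100% (9 false calls over 8018 genes). The labels name separate mice, and replicate sums differed by more than sampling noise (chi-squared per degree of freedom 14.9 and 5.61). Alternatives were DESeq2 1.42.0, RLE scaling, no filter, other limits on cells, Scrublet doublets removed, thinning, leaving out each library, a replicate block and corrections for transcript length. Columns of counts not used numbered 0.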

Additional observations from a re-analysis of the deposited data

How the results depend on the processing

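The 43 genes called between TAK-981 and vehicle became 433 without a low-count filter, 146 with DESeq2, 89 with at least 6 C1q UMIs, 150 in thinned cells, 73 with Scrublet doublets removed, 0 over all C1q-positive cells, and 1 both without transcripts under 800 nt and with the length trend removed. Leaving out a library gave 11 to 196. Counts between 40 and 47 followed RLE scaling, 500 or 2000 UMIs and 10% mitochondrial UMIs. DESeq2 gave 27 higher and 119 lower and thinning 42 and 108, against 10 and 33, and no filter gave 212 and 221. The replicate numbers are only numbers in the labels: same-numbered libraries had deviations correlated at -0.134, the replicate block gave 102 calls, 40 higher and 62 lower, and the crossed pairing, added after the data were seen, gave 414, with 169 higher. DESeq2 gave no adjusted p for Adamdec1. The 362 genes between C1q macrophages and Arg1-high cells became 627 without a filter, 167 with DESeq2 and 170 in thinned cells, and leaving out a library gave 181 to 324; the other settings gave 319 to 400. The fall of S100a8 turned to 0.028 in thinned cells. The difference in share of kept barcodes of -1.10 points turned to 1.78 at 500 UMIs and 4.33 in thinned cells, with -5.33 to 3.14 over libraries left out, and that in share of C1q-positive cells of -9.99 turned to 4.12 in thinned cells, with -16.7 to -3.24 over libraries left out. The causes were not tested. Of the named genes under treatment, 1706 values over the alternatives kept their side of the threshold, 128 lost the call and 47 gained it; against Arg1-high cells these were 1727, 166 and 17. Depth limits genes under about 10 CPM, which is near 10 UMIs per library sum.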

Other observations

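Of 32 macrophage transcription factors 4 were higher in C1q macrophages than in Arg1-high cells and 2 were lower. Batf3, a factor of dendritic cells and activated macrophages, had 28.2, 16.8, 29.0 and 37.2 CPM against 12.0, 12.1, 14.2 and 11.7 (log2 fold change 1.18 ± 0.22 SE, edgeR adjusted p = 0.00617). Id3, a regulator of tissue-resident macrophages, had 24.1, 31.2, 30.4 and 44.1 CPM against 13, 14.5, 17.5 and 26.8 (0.84 ± 0.17 SE). Tfec, of the family that drives lysosome genes, was lower (-0.78 ± 0.14 SE).

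Of 15 p53 target genes, 2 were higher and 1 lower in C1q macrophages than in Arg1-high cells. Gdf15, a stress cytokine, had 50.3, 46.8, 46.4 and 19.7 CPM in C1q macrophages against 7.49, 18.5, 17.5 and 25.9 in Arg1-high cells (1.21 ± 0.32 SE, adjusted p = 0.0493), with TAK-981 2 in the opposite direction. Mt1, Klf4 and Calr did not pass between TAK-981 and vehicle at full depth. The metallothionein Mt1 had 1905 and 2234 CPM in vehicle against 327 and 825 with TAK-981 (-1.85 ± 0.43 SE, adjusted p = 0.11), and it passed in thinned cells (-2.09, adjusted p = 0.00449). Klf4, a transcription factor of monocytes and macrophages, had 485 and 1160 CPM against 164 and 334 (-1.73 ± 0.47 SE, adjusted p = 0.162) and passed in thinned cells (-1.95, adjusted p = 0.0114). Calr, the chaperone calreticulin, had 570 and 487 CPM against 1216 and 1031 (1.09 ± 0.28 SE, adjusted p = 0.134).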
